A study of Mus musculus with 48 samples.

Results

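Cell division genes encode the proteins that copy the genome and separate it into daughter cells, and 40 of them were followed in the lungs of A/J and C57BL/6J (B6) mice that had received welding fume. They were chosen by name, not by their levels, though with earlier results of these data known. Of the 40 genes, 36 had a named probe on the array (55 probes, 13 genes with more than 1), and 25 of the 8687 genes tested at 4 weeks and 26 of the 8710 genes tested at 16 weeks were among them. A gene was tested when a probe of it was detected, at a detection p value (signal against the negative control probes of the array) under 0.01, in 4 or more of the 24 arrays of a time point. This left out Ccna2, Ccnb2, Cks2, Aurkb, Pbk, Cdca8, Bub1, Ube2c, Kif11 and Racgap1, whose probes did not pass at either time, and Mki67, Mcm3, Ccnb1 and Kif20a, for which no probe carried the name. Rrm2 passed at 16 weeks only. A gene near background can pass in the group where it is high, so that the tested genes are not the whole set.

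The RNA came from whole lung and was hybridized to 48 arrays, which made 12 groups of 4. Male mice of both strains were aspirated 4 times with 5 mg/kg of gas metal arc-mild steel fume (GMA-MS) or gas metal arc-stainless steel fume (GMA-SS), or with phosphate buffered saline (sham), and their lungs were taken 4 weeks (28 days on the labels) or 16 weeks after the last exposure. The mice were bought at 4 weeks of age, so that the later lungs also came from older animals. A/J is a strain prone to lung tumors and B6 is resistant, and GMA-SS fume carries chromium and nickel while GMA-MS fume is mostly iron. Each of 8 beadchips carried 1 array of each of the 6 groups of a time point and the replicate number names the beadchip. Every group held the same place on each beadchip, so that group and place cannot be told apart, and the 2 times were on different beadchips, so that time, age and beadchip set cannot be told apart. The labels name no animals, and p values measure the spread between arrays.

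In the adult lung most cells rest outside the cycle. A cell that enters it first loads the Mcm2 to Mcm7 helicase on its origins, then makes nucleotides (Rrm1, Rrm2, Tk1, Tyms) and copies DNA with the Pcna clamp. In mitosis Cdk1 with its cyclins, the Polo kinase Plk1 and the Aurora kinases drive chromosome condensation and spindle assembly, the spindle checkpoint (Bub1, Bub1b, Mad2l1) holds back the anaphase promoting complex and its activator Cdc20, and kinesins and their partners (Kif23, Prc1, Racgap1) build the central spindle on which the cell divides. Transcription of the replication genes is driven mainly by E2F factors, and that of the mitotic genes by the DREAM and B-Myb-FoxM1 complexes through a promoter element called the CHR, often beside CCAAT boxes bound by NF-Y.

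Promoters of 4 of these genes are shown because 3 of them, Kif23, Plk1 and Bub1b, had the largest differences between the strains in sham lung at both times, and because the fourth, Mcm5, carries the element of the replication genes. The windows are RefSeq sequence of the C57BL/6J reference on GRCm38.p6, 300 bases from 250 before to 50 after the annotated start. For Kif23, Plk1 and Bub1b the capitals mark the letters TTTGAA or TTCGAA (CHR) and CCAAT on either strand, the reverse of CCAAT reading ATTGG. For Mcm5 they mark TTTCGCGC and, overlapping it on the opposite strand, TTTGGCGC, both E2F elements.
Kif23 (chr9:61946750-61947049, minus strand): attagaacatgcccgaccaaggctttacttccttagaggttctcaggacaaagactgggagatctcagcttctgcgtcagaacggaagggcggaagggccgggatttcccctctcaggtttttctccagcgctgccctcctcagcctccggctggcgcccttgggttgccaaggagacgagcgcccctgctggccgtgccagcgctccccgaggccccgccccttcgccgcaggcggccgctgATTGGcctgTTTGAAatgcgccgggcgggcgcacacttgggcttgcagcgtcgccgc
Plk1 (chr7:122159185-122159484, plus strand): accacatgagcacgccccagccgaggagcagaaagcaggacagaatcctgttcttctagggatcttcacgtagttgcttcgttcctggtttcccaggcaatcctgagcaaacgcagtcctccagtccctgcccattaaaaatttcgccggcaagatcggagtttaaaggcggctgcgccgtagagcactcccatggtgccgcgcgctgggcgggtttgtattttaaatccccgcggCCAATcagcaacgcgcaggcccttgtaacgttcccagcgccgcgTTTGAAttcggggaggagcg
Bub1b (chr2:118597961-118598260, plus strand): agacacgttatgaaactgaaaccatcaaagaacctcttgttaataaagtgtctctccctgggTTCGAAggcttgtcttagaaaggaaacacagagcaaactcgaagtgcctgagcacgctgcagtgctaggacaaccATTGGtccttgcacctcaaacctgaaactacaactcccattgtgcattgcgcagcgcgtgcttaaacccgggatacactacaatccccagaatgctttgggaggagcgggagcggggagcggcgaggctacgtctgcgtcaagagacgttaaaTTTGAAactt
Mcm5 (chr8:75109259-75109558, plus strand): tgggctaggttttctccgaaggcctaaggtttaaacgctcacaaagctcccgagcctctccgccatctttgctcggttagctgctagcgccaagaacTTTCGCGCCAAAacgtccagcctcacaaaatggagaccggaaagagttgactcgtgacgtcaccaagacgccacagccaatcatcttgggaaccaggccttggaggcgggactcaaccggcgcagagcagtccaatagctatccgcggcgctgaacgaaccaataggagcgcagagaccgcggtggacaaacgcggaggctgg

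In Kif23, which encodes the kinesin of the central spindle, ATTGG lay at bases 244 to 248 of the window and TTTGAA at 253 to 258. In Plk1 the CCAAT box lay at 237 to 241 and TTTGAA at 281 to 286, and in Bub1b TTCGAA lay at 63 to 68, ATTGG at 138 to 142 and TTTGAA at 291 to 296. Windows were found for 33 of the 40 genes (not for Aurkb, Ccna2, Kif20a, Mcm4, Pbk, Stmn1 and Tpx2). TTTGAA or TTCGAA on either strand occurred in 20 of the 33 (60.6%), against 19.2% of all 32851 windows. The matches lay mostly in genes of mitosis and cytokinesis, of which 18 of 23 had one (78.3%), while 2 of 10 replication genes did (20%, Mcm2 and Mcm7). CCAAT on either strand occurred in 28 of the 33 (84.8%) against 37.4% of all windows. An E2F element (TTTCCCGC, TTTCGCGC, TTTGCCGC or TTTGGCGC on either strand, which can overlap each other) occurred in Cdk1, Mcm3, Mcm5, Mcm6 and Mcm7, 5 of the 33 (15.2%), against 2.26%, and in 4 of the 5 helicase genes with a window (80%). The 4 windows were picked after these matches had been seen, and a match describes letters only.

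The levels below are log2 normalized intensities, in which 1 unit is a doubling, and a gene was called at a Benjamini-Hochberg adjusted p under 0.05 over all genes tested, in a limma fit of the 6 groups of a time point with n = 4 arrays per group. The arrays detected 9990 to 11421 probes at 4 weeks and 10594 to 11567 at 16 weeks. All 10 alveolar type 2 cell markers, the surfactant genes among them, were detected on all 48 arrays, and Scgb1a1, which marks airway club cells, was too. Of 11 thymus genes with a probe, 8 were detected on 0 of 48 (Rag1, Rag2, Dntt, Ptcra, Cd4, Themis, Ccr9 and Arpp21). The 3 detected on all 48 were Cd8b1, Bcl11b and Cd3e. Mature T cells carry these 3 and also Cd4, so that a probe without detection does not show that a cell type was absent. The median level of 10 genes of stratified squamous epithelium, which does not line the alveoli, ranged from 7.44 to 10.23 within the A/J sham arrays of 4 weeks alone and had an SD of 0.297 to 1.22 within a group. In RNA of whole lung, fewer dividing cells and less of a transcript in each cell cannot be told apart. Whether the A/J sequence matches each probe was not tested, so that a strain difference below is one of probe signal. Kif23, Bub1b, Tpx2 and Rrm1 had 1 probe each on the array.

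Of the division genes 5 were lower in A/J than in B6 lung at both times, in the sham lungs as well as over the 3 exposures. They were Kif23, the kinesin of the central spindle, Plk1, the Polo kinase, Bub1b, the checkpoint kinase BubR1, Tpx2, which activates Aurora A on spindle microtubules, and Rrm1, the large subunit of ribonucleotide reductase. Plk1, Tpx2 and Bub1b passed the filter on detection through their B6 arrays, with at most 3 of 12 A/J arrays detecting them at either time, so that for these 3 being tested required a high level in B6. At 4 weeks 5 of 25 were lower and 0 higher in A/J sham lung (9.81% and 9.14% of all genes tested), and at 16 weeks 5 of 26 were lower and 2 higher (12.9% and 14.8%). Over the 3 exposures together 7 were lower and 1 higher at 4 weeks (18.1% and 20.5%), and 5 were lower and 12 higher at 16 weeks (19.8% and 26.3%). When arrays were instead scaled to the median of the probes that all of them detected (median scaling), 4 were lower and 0 higher at 4 weeks and 5 lower and 3 higher at 16 weeks over the 3 exposures, and 5 lower and 0 higher in sham lung at 16 weeks. The median log2 difference of the division genes over the 3 exposures was -0.08 at 4 weeks and 0.09 at 16 weeks, against 0.02 at both times over all genes.

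Kif23 differed most. In A/J sham lungs of 4 weeks its level was 9.04, 8.96, 8.75 and 8.89, and in B6 sham lungs it was 10.20, 10.29, 10.20 and 10.26. The groups lay more than 1 unit apart, and A/J was 2.51-fold lower (log2 difference -1.33, SE 0.076, adjusted p = 4.77e-12). At 16 weeks the levels were 8.59, 8.72, 8.51 and 8.72 in A/J and 9.86, 9.90, 9.95 and 9.82 in B6, again without overlap, a 2.37-fold difference (log2 -1.25, SE 0.097, adjusted p = 7.76e-10). The fume groups lay close to the sham group of their strain. Over all 12 arrays of a strain at 4 weeks Kif23 ran from 8.75 to 9.16 in A/J (median 9.0) and from 10.02 to 10.36 in B6 (median 10.22), and at 16 weeks from 8.51 to 9.16 (median 8.72) and from 9.73 to 10.10 (median 9.95).

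**Figure D1:**
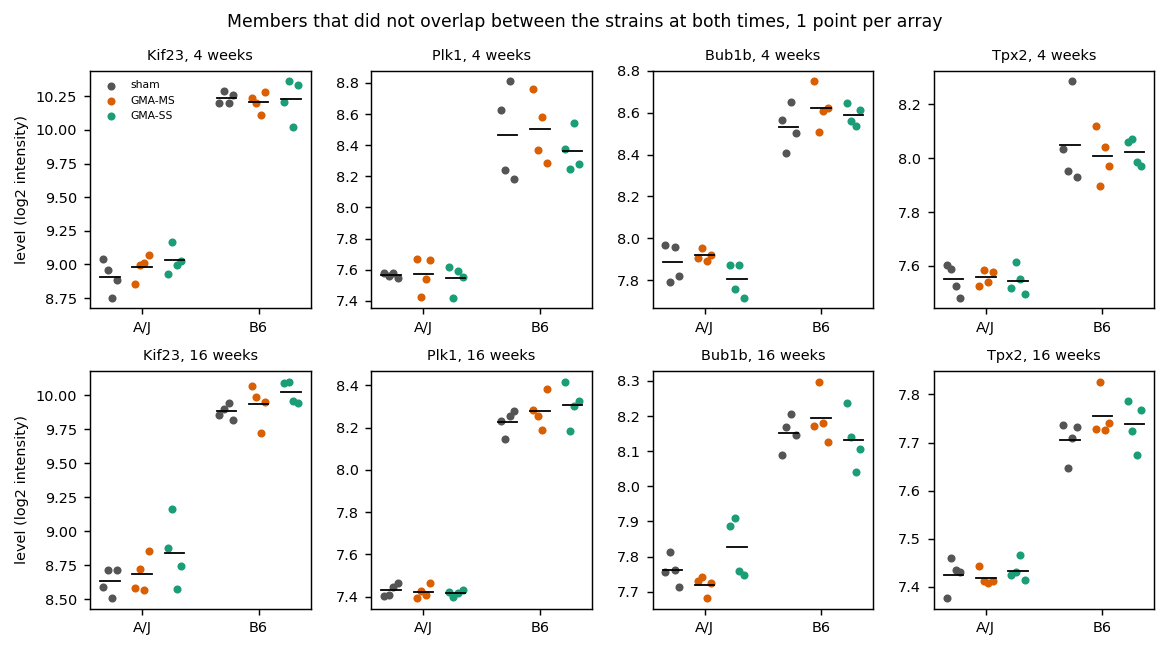
Levels (log2 normalized intensity) of Kif23, Plk1, Bub1b and Tpx2 on each array, by strain and exposure, with 4 weeks in the upper and 16 weeks in the lower panels, which were normalized separately and have their own axes. No A/J array reached a B6 array for any of the 4 genes at either time, and the sham and fume arrays of a strain overlapped, as in Kif23 at 4 weeks with 8.75 to 9.16 in A/J and 10.02 to 10.36 in B6.

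Plk1 drives mitotic entry and spindle assembly. In A/J sham lungs it measured 7.58, 7.56, 7.58 and 7.54 at 4 weeks and 7.40, 7.41, 7.44 and 7.47 at 16 weeks, and in B6 it measured 8.62, 8.24, 8.81 and 8.18 at 4 weeks and 8.23, 8.15, 8.26 and 8.28 at 16 weeks. It was detected on 0 of 12 A/J arrays and on 12 of 12 B6 arrays at each time, so that the A/J level is only a bound. The bound sets Plk1 against the lowest signal among detected probes of each A/J array. Plk1 was at least 1.61-fold lower in A/J sham lung at 4 weeks and at least 1.5-fold lower at 16 weeks. The measured log2 differences were -0.90 (adjusted p = 3.74e-06) and -0.80 (adjusted p = 7.23e-12) in limma. The bounds themselves were not tested. Plk1 was tested only because B6 arrays detected it, and its A/J values are background readings, so these p values are no separate support for the difference. Plk1 has a further probe on the array, which was detected on 0 arrays.

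Bub1b, which keeps anaphase waiting until chromosomes are attached, measured 7.97, 7.79, 7.96 and 7.82 in A/J and 8.57, 8.41, 8.65 and 8.50 in B6 sham lung at 4 weeks. The groups did not overlap. A/J, where 1 of 4 arrays detected it, was at least 1.56-fold lower with the other arrays taken at the lowest detected signal or their own value. The measured log2 difference was -0.65 (adjusted p = 5.3e-08 in limma). At 16 weeks Bub1b measured 7.75, 7.81, 7.76 and 7.71 in A/J and 8.09, 8.17, 8.21 and 8.15 in B6. That was at least 1.31-fold lower with 1 of 4 A/J arrays detected, and the measured log2 difference was -0.39 (adjusted p = 1.72e-06). The A/J level was close to background, with detection on 2 and 3 of the 12 A/J arrays of the 2 times and on 12 of 12 B6 arrays. Tpx2 was fainter still: detection failed on all 12 A/J arrays of each time and held on 9 and 7 of 12 in B6. In sham lungs of 4 weeks Tpx2 measured 7.60, 7.59, 7.53 and 7.48 in A/J and 8.03, 7.95, 8.29 and 7.93 in B6, at least 1.21-fold lower. At 16 weeks it measured 7.38, 7.46, 7.43 and 7.43 against 7.74, 7.65, 7.71 and 7.73, at least 1.05-fold lower. The measured log2 differences were -0.50 (adjusted p = 5.59e-06) and -0.28 (adjusted p = 2.77e-06) in limma. For both genes the p values belong to the measured differences, and the bounds were not tested. Both were tested because B6 arrays detected them, so these p values are no separate support for the differences.

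Rrm1 was the replication gene among the 5, and its detection did not depend on strain, since it was found on all arrays. In sham lungs of 4 weeks it measured 9.32, 9.07, 9.29 and 9.23 in A/J and 9.55, 9.36, 9.61 and 9.33 in B6. The groups came close but did not overlap, and A/J was 1.18-fold lower (log2 -0.23, SE 0.078, adjusted p = 0.0394). At 16 weeks it measured 8.69, 8.75, 8.80 and 8.71 against 9.03, 9.09, 9.24 and 9.10, 1.3-fold lower (log2 -0.38, adjusted p = 0.00012). None of the 5 genes overlapped between the sham groups at either time, so being lower in A/J on 4 of 4 beadchips follows from that and adds nothing to it. Over the 12 arrays of each strain, 5 of 25 division genes did not overlap at 4 weeks (8.88% of all genes) and 4 of 26 at 16 weeks (11.4%), where Rrm1 overlapped. Plk1, Tpx2 and Bub1b were among them at both times, and being tested required a high level in B6 for these. Kif23 and, at 4 weeks, Rrm1 were the ones detected on all arrays of both strains.

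Over the 12 arrays of a strain, sham and fume together, the separations held except for Rrm1 at 16 weeks. At 4 weeks Plk1 ran from 7.42 to 7.67 in A/J (median 7.57) and from 8.18 to 8.81 in B6 (median 8.37), and at 16 weeks from 7.39 to 7.47 (median 7.42) and from 8.15 to 8.42 (median 8.27), at least 1.59-fold and 1.54-fold lower in A/J. Bub1b ran from 7.72 to 7.97 (median 7.88) and from 8.41 to 8.75 (median 8.59) at 4 weeks, at least 1.63-fold lower. At 16 weeks it ran from 7.68 to 7.91 (median 7.75) and from 8.04 to 8.30 (median 8.16), at least 1.31-fold lower. Its measured log2 differences were -0.71 (adjusted p = 2.59e-13) and -0.39 (adjusted p = 1.03e-10) in limma, for a gene tested through its B6 arrays. The bounds were not tested. Tpx2 ran from 7.48 to 7.62 (median 7.55) and from 7.90 to 8.29 (median 8.01) at 4 weeks, and from 7.38 to 7.47 (median 7.43) and from 7.65 to 7.83 (median 7.73) at 16 weeks. Rrm1 ran from 9.01 to 9.32 (median 9.18) and from 9.33 to 9.61 (median 9.48) at 4 weeks (log2 -0.30, SE 0.045), and from 8.68 to 8.95 (median 8.77) and from 8.93 to 9.24 (median 9.10) at 16 weeks (log2 -0.33, SE 0.038), where the strains overlapped.

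With median scaling in place of quantile normalization, Kif23 and Rrm1 alone kept their call in sham lung at 4 weeks, with adjusted p = 0.293 for Plk1, 0.464 for Bub1b and 0.731 for Tpx2. The call of Rrm1 in sham lung at 4 weeks held in 4 of the 8 fits that left out 1 array, and it was lost with the deposited log2 values (log2 -0.15, adjusted p = 0.0545) and with only the arrays of the 2 groups in the fit (adjusted p = 0.14).

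Away from these 5 genes the strains were close at 4 weeks. The 5 had been set aside by their values in these same data, which by itself raises the median of the others. Over the 3 exposures the other 20 genes ran from -0.26 (Cdca3) to 0.23 (Pcna) in log2 difference, A/J over B6, with a median of -0.02 and 9 above 0. Cdca3, a trigger of mitotic entry, ran from 8.41 to 8.94 in A/J (median 8.61) and from 8.76 to 9.15 in B6 (median 8.89), with overlap, and fell by 0.26 (SE 0.064, adjusted p = 0.00266). Mcm2 of the helicase ran from 8.55 to 8.94 (median 8.78) and from 8.69 to 9.12 (median 8.90), and was lower by a log2 difference of -0.15 (adjusted p = 0.0438), a call that held in 8 of the 24 fits with 1 array left out. Nusap1, which bundles spindle microtubules, was the only one higher in A/J, by 0.15 (SE 0.048, adjusted p = 0.0177), from 8.91 to 9.39 (median 9.04) against 8.79 to 9.09 (median 8.94).

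At 16 weeks the other 21 genes lay mostly above 0. These 21 were left after the genes lower at both times had been set aside by their values in these same data. That choice by itself raises the median and the share above 0. They ran from -0.01 (Mcm2) to 0.40 (Stmn1) in log2 difference over the 3 exposures, with a median of 0.13 and 19 of 21 above 0. The 12 called higher came from every role: Mcm5 and Mcm7 of the helicase, Tk1 of nucleotide salvage, Aurka, the Aurora A kinase, Top2a and Birc5 of chromosomes and the centromere, Cdc20 and Mad2l1 of the anaphase promoting complex and its checkpoint, and Stmn1, Nusap1, Prc1 and Kif22 of spindle microtubules. Under median scaling, Top2a, Tk1, Cdc20, Aurka, Birc5, Kif22 and Mad2l1 turned lower in A/J, with no call, so their direction at 16 weeks depends on the normalization. That scaling also put the median of all genes at -0.074 in this comparison, below the -0.057 of Cdc20.

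Stmn1, which destabilizes microtubules, ran from 9.38 to 10.38 in A/J (median 10.11) and from 9.20 to 10.02 in B6 (median 9.77) at 16 weeks. The ranges overlapped, and the log2 difference was 0.40 (SE 0.12, adjusted p = 0.00877). Nusap1 ran from 8.72 to 9.30 (median 9.07) against 8.47 to 8.90 (median 8.63), a log2 difference of 0.38 (SE 0.060, adjusted p = 1.61e-05). Prc1, which bundles the microtubules of the midzone, ran from 9.40 to 10.25 (median 9.75) against 9.27 to 9.93 (median 9.55), a difference of 0.24 (SE 0.086, adjusted p = 0.0291). Mcm5 ran from 9.71 to 10.20 (median 9.92) against 9.47 to 9.89 (median 9.74), a difference of 0.24 (SE 0.057, adjusted p = 0.00171). Of these, Nusap1 was also called in sham lung alone, where it measured 8.83, 9.02, 9.13 and 9.14 in A/J and 8.73, 8.62, 8.54 and 8.70 in B6, without overlap (log2 0.38, SE 0.10, adjusted p = 0.00817). Top2a, the topoisomerase that untangles chromosomes, was the other, with 7.85, 7.82, 8.09 and 8.0 against 7.79, 7.67, 7.77 and 7.71 (log2 0.21, SE 0.065, adjusted p = 0.0196), but its difference was -0.55 under median scaling. The remaining differences were 0.18 for Cdc20, 0.15 for Mad2l1, 0.14 for Birc5, 0.13 for Mcm7 and Aurka, 0.11 for Kif22 and 0.09 for Tk1, and the calls of Kif22 and Tk1 held in 7 and 8 of the 24 fits that left out 1 array. Kif22 was detected on 7 of 12 A/J and 6 of 12 B6 arrays and Tk1 on 6 and 4, so that both lay near background.

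**Figure D2:**
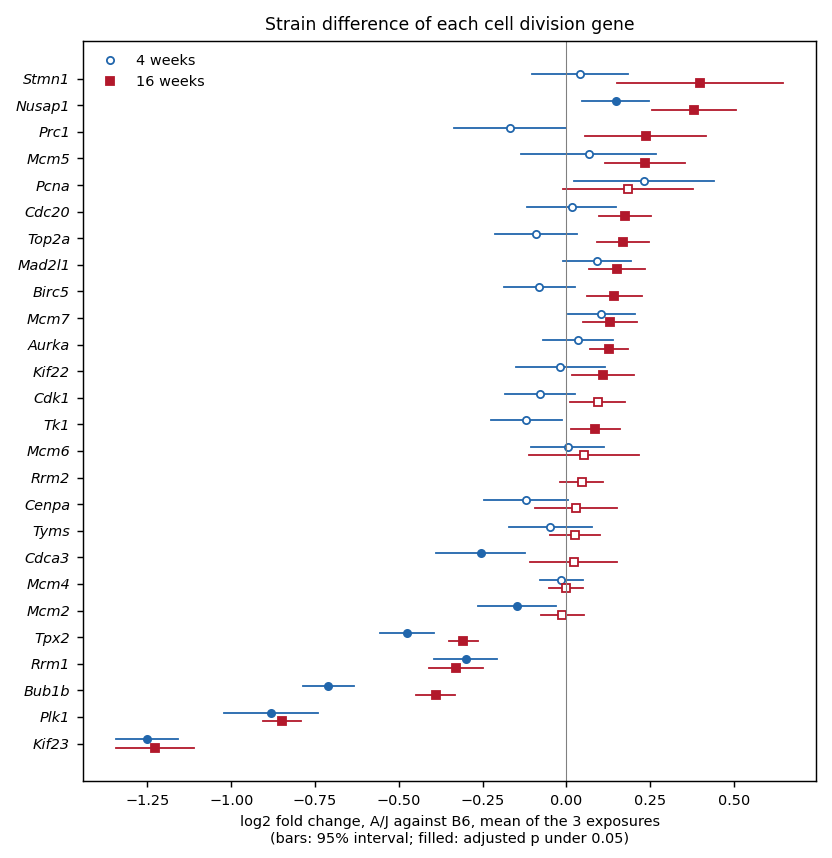
Log2 difference of A/J over B6, mean of the 3 exposures, for every division gene tested, at 4 weeks (blue circles) and 16 weeks (red squares), with 95% intervals and filled symbols for an adjusted p under 0.05. Kif23 lay lowest at -1.25 and -1.23, and the genes on the right at 16 weeks reached 0.40 (Stmn1); Top2a, Tk1, Cdc20, Aurka, Birc5, Kif22 and Mad2l1 change sign at 16 weeks under median scaling.

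Whether the difference between strains itself changed with time was tested in a fit of all 48 arrays, chosen after the counts above had been seen. The change from 4 to 16 weeks was above 0 for 23 of 26 division genes with a median of 0.13, against a median of 0.01 over the 8900 genes of this fit. It was called for 3 of them, all upward, and for 1.18% of all genes upward and 0.809% downward. For Bub1b the fitted change was 0.26 (adjusted p = 0.000673), but its A/J level lay near background at both times, with 2 and 3 of 12 arrays detected, so that the change of the difference is not measured on the A/J side. Top2a (0.27, SE 0.069, adjusted p = 0.0321) and Birc5, the survivin subunit of the centromeric Aurora B complex (0.23, SE 0.063, adjusted p = 0.0441), were the other 2. Top2a also lay near background at 4 weeks, detected on 3 of 12 A/J and 5 of 12 B6 arrays. With the beadchip as a block the count was 7 (5.58% of all genes in either direction), and with median scaling it was 0. With the deposited log2 values it was 4 upward and 1 downward (Birc5, Nusap1, Plk1, Prc1 and Top2a), and Bub1b was not called (change 0.082, adjusted p = 0.216). The call of Birc5 held in 20 of the 48 fits with 1 array left out and was lost without the filter on detection (adjusted p = 0.0594). The count was 1 without A/J GMA-MS replicate 1 or A/J GMA-SS replicate 2 of 16 weeks, or without A/J sham replicate 2 or A/J GMA-MS replicate 2 of 4 weeks, and 5 without A/J sham replicate 1 of 4 weeks. In sham lungs alone 0 of 26 were called by limma (6 at an unadjusted p under 0.05, beside 4.13% of all genes), and 0.0225% of all genes were.

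Cell type markers also differed between the strains, and their part in these differences was not tested. Of all genes, 20.5% were called higher and 18.1% lower in A/J over the 3 exposures at 4 weeks. At 16 weeks these shares were 26.3% and 19.8%. Over the 3 exposures all 7 tested B cell markers were lower in A/J at both times (median log2 difference -0.58 at 4 weeks and -0.33 at 16 weeks). Of 8 macrophage markers 5 were called higher at 4 weeks and 6 at 16 weeks (medians 0.71 and 0.84), and 7 of 10 squamous epithelium genes were higher at 4 weeks (median 0.97) and 0 at 16 weeks. Neutrophil markers were all 6 on the lower side at 16 weeks (median -0.62).

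Other genes of the cycle split both ways between the strains. The shares of all genes called over the 3 exposures were 20.5% higher and 18.1% lower at 4 weeks. At 16 weeks they were 26.3% and 19.8%. Among further mitosis genes 1 was higher and 4 were lower in A/J of 14 at 4 weeks, and 5 were higher and 2 lower of 13 at 16 weeks. Pttg1, which encodes securin, the inhibitor of separase, was lower by a log2 difference of -2.94 at 4 weeks (SE 0.064, adjusted p = 1.84e-20) and -2.64 at 16 weeks (SE 0.096, adjusted p = 2.94e-16), more than any of the division genes tested. Bub3, the partner of Bub1b in the checkpoint, was lower as well (-0.51 and -0.46), while Ncaph, a condensin subunit, was higher (0.29 and 0.31). Among further replication genes 3 were higher and 2 lower of 21 at 4 weeks, and 6 higher and 1 lower at 16 weeks, led by Gins4 (0.33 and 0.29) and Chaf1b (0.23 and 0.31) on the higher side and Pold1, a DNA polymerase delta subunit, on the lower (-0.24 and -0.20). Of 9 transcription factors of the cycle 4 were higher at each time, with E2f1 at 0.73 and 0.79, and 1 was lower at 4 weeks. G1 cyclins and their kinases held 1 higher and 2 lower at each time, of 6 and 7, with Ccnd2 (cyclin D2) at -0.99 and -0.86. Of 12 inhibitors and p53 targets 4 were higher and 4 lower at 4 weeks, and 6 and 4 at 16 weeks. Phlda3 was the lowest (-1.18 and -1.28), and Cdkn2a (0.82 and 0.89) and Cdkn1a, which encodes p21 (0.78 and 0.61), were the highest.

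The study asked how the 2 strains differ in their lung response to fume. Without the beadchip in the fit no division gene was called in any comparison of a fume with sham, and with it as a block 1 was, Pcna for GMA-MS in A/J at 4 weeks (adjusted p = 0.00538). At 4 weeks 0 of 25 were called for GMA-MS in A/J (0.196% of all genes were), for GMA-SS in A/J (0.23%), for GMA-MS in B6 (0.0806%) and for GMA-SS in B6 (0.0806%). At 16 weeks 0 of 26 were called for GMA-MS in A/J (0.023%), for GMA-SS in A/J (0.0344%), for GMA-MS in B6 (0.149%) and for GMA-SS in B6 (0%). At an unadjusted p under 0.05 in limma there were 0 in each comparison at 4 weeks, where 7.39%, 5%, 3.86% and 3.61% of all genes passed in the same order. At 16 weeks there were 1, 5, 3 and 0, all of them higher after fume, with 8.43%, 5.9%, 9.45% and 4.09% of all genes. Few genes of any kind passed, so a count of 0 is near the background. The 95% intervals of the log2 changes of single genes reached from -0.60 to 0.70 over the 8 comparisons.

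At 4 weeks the changes centred on 0. The median log2 change of the division genes was 0.00 for GMA-MS and 0.03 for GMA-SS in A/J and 0.01 and 0.00 in B6, with all genes at -0.01, -0.02, 0.01 and 0.00. At 16 weeks 24 of 26 were above 0 for GMA-SS in A/J (92.3%, against 43.5% of all genes), with a median of 0.11 against -0.01, and 22 of 26 for GMA-MS in B6, with a median of 0.05 against 0.01. For GMA-MS in A/J 18 of 26 were above 0 (median 0.04 against 0.00) and for GMA-SS in B6 13 of 26 (median 0.01 against -0.01). The division genes vary together from array to array, so that the counts above 0 are not independent. Beside GMA-SS in A/J at 16 weeks, 8 of 8 macrophage markers (median 0.28), 8 of 9 T and natural killer cell markers (0.24) and 7 of 7 B cell markers (0.12) were above 0, with 1 of 11 endothelial and 0 of 10 squamous epithelium genes, and their part in the result was not tested.

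**Figure D3:**
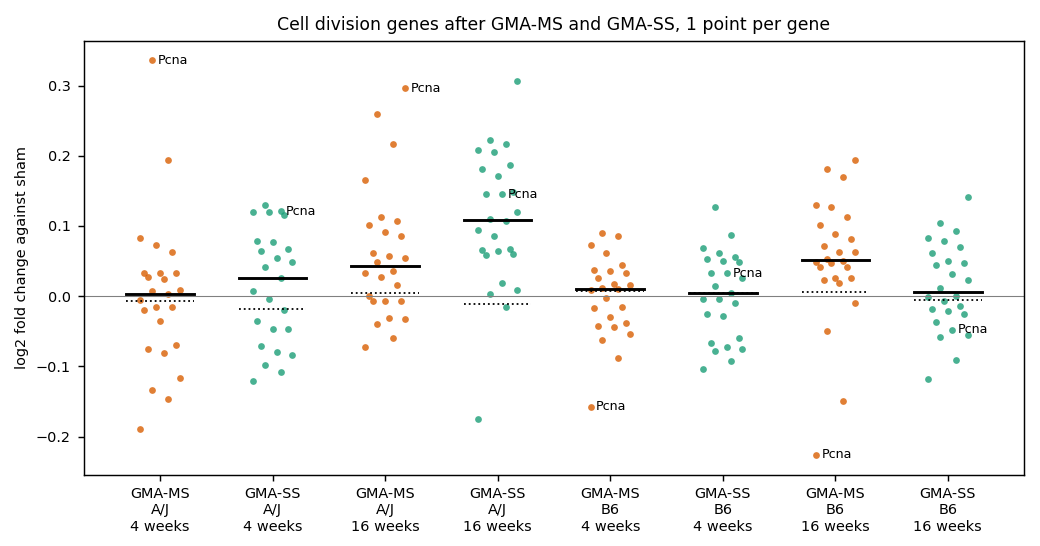
Log2 change against sham of the same strain and time for each division gene tested (1 point each), in the 8 comparisons of a fume with sham, with the median of the division genes (solid line) and of all genes (dotted line). No point passed an adjusted p of 0.05 without the beadchip in the fit; Pcna lies farthest up after GMA-MS in A/J at 4 weeks (0.34), and the points after GMA-SS in A/J at 16 weeks sit mostly above 0 (24 of 26).

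The members with the lowest p in each comparison show the scale. In the lungs of A/J mice taken 16 weeks after GMA-SS, Cdc20, the activator of the anaphase promoting complex, measured 8.17, 8.51, 8.47 and 8.38 against 8.01, 8.19, 8.21 and 8.24 in sham, an overlap of 1 array (log2 0.22, SE 0.065, adjusted p = 0.434). Kif22, a kinesin that binds chromosome arms, measured 7.80, 7.98, 8.18 and 7.80 against 7.60, 7.73, 7.79 and 7.92 (log2 0.18, SE 0.077, adjusted p = 0.744). In those of B6 mice taken 16 weeks after GMA-MS, Mcm7 measured 9.33, 9.17, 9.31 and 9.22 against 9.12, 8.91, 9.18 and 9.04 (log2 0.19, SE 0.067, adjusted p = 0.298). The groups of Kif22 and Mcm7 overlapped. Those of Cdc20 after GMA-MS in B6 did not, with 8.19, 8.17, 8.09 and 8.23 against 8.02, 7.99, 8.02 and 7.96 (log2 0.17, SE 0.065, adjusted p = 0.37).

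For GMA-MS in A/J at 16 weeks, both genes of lowest p belonged to the helicase. Mcm4 measured 11.60, 11.62, 11.67 and 11.60 against 11.51, 11.50, 11.62 and 11.49 in sham (log2 0.09, SE 0.043, adjusted p = 0.582). Mcm2 measured 8.57, 8.44, 8.39 and 8.48 against 8.37, 8.35, 8.37 and 8.40 (log2 0.10, SE 0.053, adjusted p = 0.631). For GMA-SS in B6 at 16 weeks, Plk1 measured 8.42, 8.18, 8.30 and 8.33 against 8.23, 8.15, 8.26 and 8.28 (log2 0.08), and Kif23 measured 10.09, 10.10, 9.96 and 9.94 against 9.86, 9.90, 9.95 and 9.82 (log2 0.14). All 4 of these overlapped with sham.

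At 4 weeks, all of the genes of lowest p overlapped with sham too. For GMA-SS in A/J, Kif23 measured 8.93, 9.16, 9.0 and 9.03 against 9.04, 8.96, 8.75 and 8.89 (log2 0.12, SE 0.076), and Mcm7 measured 9.55, 9.72, 9.55 and 9.63 against 9.58, 9.83, 9.71 and 9.81 (log2 -0.12, SE 0.083). For GMA-MS in B6, Bub1b measured 8.75, 8.51, 8.61 and 8.62 against 8.57, 8.41, 8.65 and 8.50 (log2 0.09, SE 0.064). Aurka, the kinase of the spindle poles, measured 7.81, 7.79, 8.06 and 7.94 in B6 sham lung, 8.10, 7.94, 7.98 and 7.92 after GMA-MS (log2 0.09) and 8.21, 8.17, 7.87 and 7.86 after GMA-SS (log2 0.13). Mcm6 measured 10.76, 10.64, 10.40 and 10.54 in B6 after GMA-SS against 10.40, 10.49, 10.50 and 10.58 (log2 0.09, SE 0.092). Adjusted p was 1 for each of these values in limma. For GMA-MS in A/J, Stmn1 measured 11.05, 11.13, 11.10 and 11.19 against 10.78, 11.15, 10.70 and 11.06 (log2 0.19, SE 0.12, adjusted p = 0.82).

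The fumes did not separate from each other either. For GMA-SS against GMA-MS 0 division genes were called in either strain at either time (0% of all genes in 3 of the comparisons and 0.0574% in B6 at 16 weeks), with 2, 0, 4 and 1 at an unadjusted p under 0.05 in A/J and B6 at 4 weeks and A/J and B6 at 16 weeks (6.03%, 2.71%, 4.59% and 5.24% of all genes). Without the beadchip in the fit the effect of a fume differed between the strains for 0 of them (GMA-MS: 0.0345% of all genes at 4 weeks and 0.115% at 16 weeks; GMA-SS: 0% at both), with 0 at an unadjusted p under 0.05 at 4 weeks (4.62% of all genes for GMA-MS and 1.76% for GMA-SS) and 1 for each fume at 16 weeks (7.11% and 3.36%). It differed between the times for 0 of 26 (0.0112% of all genes for GMA-MS in A/J and 0% for the other 3), with 1 and 2 at an unadjusted p under 0.05 for GMA-MS and GMA-SS in A/J (4.03% and 4.1%) and 0 for both in B6 (3.04% and 3.33%). The intervals of single genes for the strain difference in the GMA-MS effect reached from -0.74 to 1.01 at 4 weeks.

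Pcna, the sliding clamp of DNA polymerases, was measured by 1 probe detected on all 48 arrays, and its call depended on whether the beadchip was in the fit. In A/J lungs of 4 weeks, in beadchip order, it measured 9.52, 10.05, 9.41 and 9.82 in sham and 9.73, 10.37, 9.95 and 10.09 after GMA-MS, and in B6 it measured 9.42, 9.92, 9.47 and 9.83 in sham and 9.24, 9.77, 9.37 and 9.63 after GMA-MS. The second beadchip was the highest in each group, and the groups overlapped. On every beadchip the A/J array was higher after GMA-MS than after sham and the B6 array was lower.

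At 16 weeks Pcna measured 8.98, 9.09, 8.39 and 8.92 in A/J sham lung and 9.26, 9.28, 8.93 and 9.10 after GMA-MS, and in B6 it measured 9.08, 9.11, 8.54 and 8.88 in sham and 8.78, 8.85, 8.41 and 8.66 after GMA-MS. Each beadchip again had A/J higher and B6 lower. Over the 8 beadchips the log2 change within a beadchip was above 0 on 8 in A/J (0.18 to 0.54) and on 0 in B6 (-0.30 to -0.10). After GMA-SS it was above 0 on 8 of 8 in A/J (0.03 to 0.39) and on 3 of 8 in B6.

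Without the beadchip in the fit the change of Pcna after GMA-MS in A/J was 0.34 at 4 weeks (SE 0.17, adjusted p = 0.736) and 0.30 at 16 weeks (adjusted p = 0.661). With the beadchip as a block the change at 4 weeks was called (adjusted p = 0.00538, beside 1.31% of all genes), and that at 16 weeks was not (adjusted p = 0.0795). In B6 the change was -0.16 and -0.23, with adjusted p = 0.316 and 0.098 under the block. The difference between strains in the change was 0.49 at 4 weeks and 0.52 at 16 weeks, with adjusted p = 0.0111 (0.138% of all genes) and 0.0126 (0.344%) under the block, and 1 and 0.673 without it. Pcna was the 1 division gene that the block called in these comparisons. Since a group had the same place on all beadchips, place on the beadchip repeats with the group and cannot be told apart from it. Beside GMA-MS in A/J at 4 weeks, 8 of 8 macrophage markers were above 0 (median 0.35; Mmp12, a macrophage elastase, 1.81 with adjusted p = 6.47e-07, and Ctsk, cathepsin K, 0.65 with adjusted p = 0.0473), and their part was not tested.

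**Figure D4:**
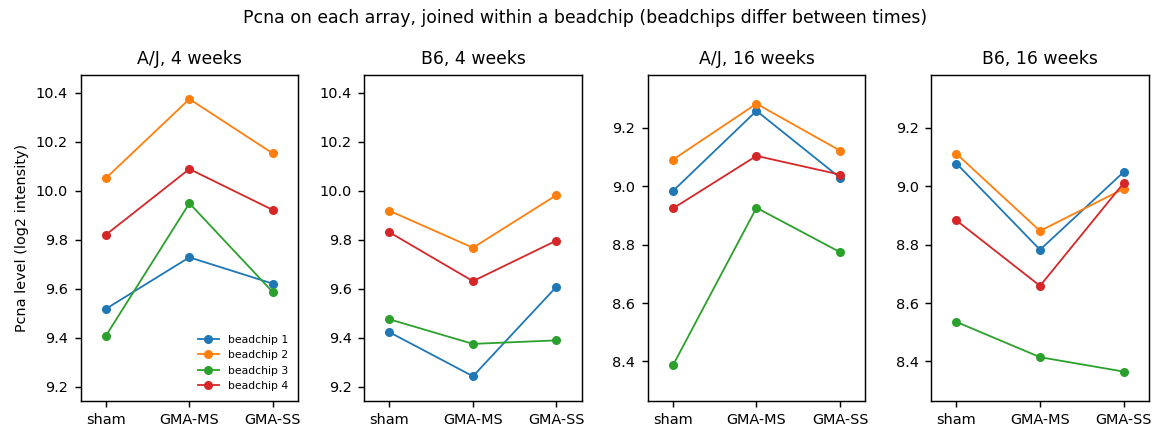
Pcna level (log2 normalized intensity) on each array, with the sham, GMA-MS and GMA-SS arrays of 1 beadchip joined by a line, for each strain and time; the 2 times were normalized separately. The lines rise from sham to GMA-MS on 8 of 8 beadchips in A/J (0.18 to 0.54) and fall on 8 of 8 in B6 (-0.30 to -0.10).

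Between 4 and 16 weeks of recovery, with all 48 arrays normalized together, Stmn1 and Pcna were the division genes that fell most in sham lung of both strains. In A/J 5 of 26 fell and 4 rose (16.1% and 10.2% of all genes; 4 and 1 under median scaling), and in B6 6 fell and 2 rose (16.6% and 10.7%). In A/J Stmn1 measured 10.65, 11.02, 10.57 and 10.93 at 4 weeks and then 10.26, 10.47, 9.67 and 10.24 at 16 weeks (log2 -0.64, SE 0.17, adjusted p = 0.00555). In B6 it measured 10.85, 10.78, 10.79 and 11.05 and then 9.94, 10.04, 9.37 and 10.08, 2.01-fold lower (log2 -1.01, SE 0.17, adjusted p = 4.1e-05). In neither strain did the times overlap.

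Among replication genes, in A/J Pcna measured 9.39, 9.93, 9.28 and 9.70 at 4 weeks and then 9.13, 9.23, 8.51 and 9.07 at 16 weeks (log2 -0.59, SE 0.18, adjusted p = 0.0114), and 9.29, 9.80, 9.35 and 9.71 and then 9.22, 9.25, 8.66 and 9.02 in B6 (log2 -0.50, SE 0.18, adjusted p = 0.0326). The third beadchip of 16 weeks was the lowest in both strains. Mcm7 measured 9.45, 9.71, 9.59 and 9.69 and then 9.32, 9.37, 9.34 and 9.36 in A/J (log2 -0.26, SE 0.076, adjusted p = 0.00871), and 9.35, 9.53, 9.51 and 9.40 and then 9.27, 9.06, 9.32 and 9.18 in B6 (log2 -0.24, SE 0.076, adjusted p = 0.0151). In A/J Rrm1 fell by 0.23 (9.19, 8.94, 9.16 and 9.10 to 8.82, 8.88, 8.94 and 8.85, adjusted p = 0.0158) and Mcm2 by 0.22 (8.71, 8.58, 8.82 and 8.70 to 8.49, 8.47, 8.49 and 8.52, adjusted p = 0.034). In B6 their changes were -0.08 (adjusted p = 0.461) and -0.18 (adjusted p = 0.0797), and the difference between the strains was not called (adjusted p = 1 for both). Mcm4, of the same helicase, rose. It measured 11.52, 11.54, 11.53 and 11.50 and then 11.67, 11.67, 11.79 and 11.65 in A/J (log2 0.17, SE 0.045, adjusted p = 0.00393), and 11.46, 11.53, 11.56 and 11.61 and then 11.73, 11.66, 11.79 and 11.79 in B6 (log2 0.20, SE 0.045, adjusted p = 0.000813).

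**Figure D5:**
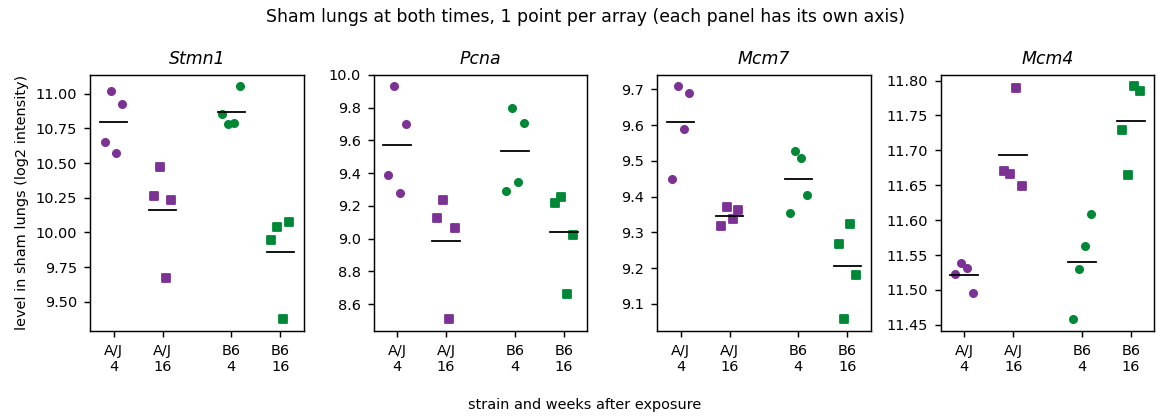
Levels (log2 normalized intensity, all 48 arrays normalized together) of Stmn1, Pcna, Mcm7 and Mcm4 on each sham array at 4 and 16 weeks in A/J and B6, each gene on its own axis. Stmn1 fell by 0.64 in A/J and 1.01 in B6, Pcna by 0.59 and 0.50 and Mcm7 by 0.26 and 0.24, while Mcm4 rose by 0.17 and 0.20.

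Beside Stmn1, 3 mitotic genes were called in A/J and 4 in B6, and none was called for a difference between the strains in the change of sham lung over time. In A/J, Prc1 measured 9.75, 9.10, 9.42 and 8.87 at 4 weeks and 9.68, 9.54, 10.32 and 9.88 at 16 weeks (log2 0.57, SE 0.15, adjusted p = 0.00381), and Top2a measured 7.91, 7.61, 7.79 and 7.53 and then 7.93, 7.90, 8.19 and 8.09 (log2 0.32, SE 0.085, adjusted p = 0.00458), both with overlap. Aurka was higher at 16 weeks in both strains, with 8.07, 7.84, 7.91 and 7.85 and then 8.02, 8.15, 8.19 and 8.17 in A/J (log2 0.22, adjusted p = 0.0164) and 7.74, 7.72, 7.98 and 7.87 and then 8.05, 7.96, 8.02 and 8.03 in B6 (log2 0.19, adjusted p = 0.0372). Both genes lay near background at 4 weeks. Sham and fume together, Top2a was detected on 3 of 12 A/J arrays and Aurka on 4 of 12 in A/J and 6 of 12 in B6. In B6 Birc5, Tpx2 and Bub1b were lower at 16 weeks. Birc5 measured 8.19, 8.05, 8.36 and 8.13 and then 8.04, 7.82, 8.02 and 7.87 (log2 -0.24, SE 0.078, adjusted p = 0.0168). Its change was 0.050 under median scaling, where the median of all genes was 0.046. Tpx2 measured 7.95, 7.88, 8.19 and 7.86 and then 7.81, 7.72, 7.78 and 7.81 (log2 -0.19, SE 0.050, adjusted p = 0.00422), and under that scaling it was 0.22. Bub1b measured 8.46, 8.31, 8.54 and 8.40 and then 8.19, 8.27, 8.32 and 8.25 (log2 -0.17, SE 0.055, adjusted p = 0.0202), and under that scaling its change was -0.027 (adjusted p = 0.972).

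With only the arrays of the 2 groups compared in the fit, 2 genes were called over time in A/J (Mcm7 and Stmn1) and 4 in B6 (Mcm4, Mcm7, Pcna and Stmn1). Of all 8900 genes 1278 were called so in A/J and 2138 in B6. Under median scaling 5 were called in A/J (Mcm7, Pcna, Prc1, Rrm1 and Stmn1) and 3 in B6 (Mcm4, Mcm7 and Stmn1), beside 1390 and 1182 of all 8900 genes. Of the 8 fits that left out 1 array, the call of Mcm2 in A/J held in 2, that of Aurka in 5 in A/J and 3 in B6, that of Pcna in 6 and 4, and that of Birc5 in B6 in 5. Leaving out 1 array gave 6 to 9 in A/J and 5 to 8 in B6, 5 without B6 sham replicate 4 of 16 weeks or B6 sham replicate 2 or replicate 3 of 4 weeks. Beside these changes 4 of 10 fibroblast and smooth muscle markers were lower at 16 weeks in A/J (median -0.26) and 5 of 10 in B6 (median -0.44), and their part was not tested. Of the other cycle genes Fen1, the flap endonuclease (-0.23 in A/J and -0.33 in B6), and Cdc6, a loader of the helicase (-0.13 and -0.21), were lower at 16 weeks in both strains, and Ccnd3, cyclin D3 (0.52 in both), Ccng1, a p53 target (0.62 and 0.72), and E2f6 (0.30 and 0.47) were higher. Further mitosis genes were called for 0 of 14 in A/J and for 1 higher and 6 lower of 14 in B6. Of all genes 10.2% were called higher and 16.1% lower over time in A/J, and 10.7% and 16.6% in B6.

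The division genes varied together between arrays beyond group and beadchip. After the mean of each group and of each beadchip was taken out, the median Pearson correlation over the 300 pairs of 25 genes was 0.256 at 4 weeks and over the 325 pairs of 26 genes 0.226 at 16 weeks, in 24 arrays each. Over pairs of 869 and 871 other genes taken at a regular step it was 0.0142 and 0.0166. The pair closest at 4 weeks was Cdca3 and Cdc20 (r = 0.872), and at 16 weeks Top2a and Aurka (r = 0.866). These points share arrays and normalization and the correlations are a description. Their median SD within a group was 0.130 at 4 weeks and 0.0951 at 16 weeks, close to the 0.142 and 0.107 of all genes.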

How the data were processed

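RNA of 48 mouse lungs was hybridized to Illumina MouseRef-8 beadchips. The authors exported mean bead intensities per probe without normalization, and deposited them with a detection p value of each probe against the negative controls of its array. They also deposited log2 values, made for each time point in lumi with background correction, variance stabilization and a robust spline, which served as an alternative here. The platform annotation, with symbols updated through Entrez IDs, gave 20984 of 24613 probes 1 symbol, 1 probe several and 3628 none, and 4 probe IDs in 2 rows were averaged.

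Intensities were corrected and quantile normalized by neqc (offset 16) of limma 3.58.1 in R 4.3.3, each time point by itself and, for differences between times, all 48 arrays together (8900 genes). The brightest detected probe stood for a gene. lmFit and eBayes were run over the 6 or 12 groups, with Benjamini-Hochberg adjustment over all genes. Limits for undetected genes used the lowest detected signal of each array. Bead counts had array medians of 34 to 36, and precision is limited by the number of arrays. The code was tested on simulated data with known changes.

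The 40 genes and the other lists were chosen with earlier results of these data known. Every gene was accounted for, and arrays were given for called genes (the 8 largest where more were called), and otherwise for the 2 of lowest p against sham. From other lists at most 4 called genes were named. Beadchips came from the labels. Arrays of 1 beadchip deviated together from their group means (mean correlation over genes 0.258 to 0.434 within the beadchips of 4 weeks and 0.0484 to 0.223 within those of 16 weeks, and negative between beadchips), so a fit with the beadchip as a replicate block was run. The alternatives were 10 other settings, among them the cutoff of the study, and each array left out in turn. The study gives 1.3-fold and a p under 0.05 without saying whether that p is adjusted, and it was taken here as unadjusted. Figures used matplotlib 3.10.9 in Python 3.11.15, and statmod 1.5.0 and data.table (version 1.17.8) were used in R.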

Additional observations from a re-analysis of the deposited data

Results flagged for a closer look

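A single array stood apart from the other 3 of its group, by Dixon's ratio of its gap to the range of the group, in 9 of 306 groups of the division genes tested (2.94%), where chance gives about 1 in 20 (5%). For Kif23, Plk1, Bub1b, Tpx2, Rrm1, Stmn1 and Pcna there were 3, and those of the other division genes are not listed here. Pcna in B6 lung 16 weeks after GMA-SS was 8.37 on replicate 3 against 8.99 to 9.05 on the others. That beadchip was also the lowest for Pcna in the other groups of 16 weeks. Tpx2 in B6 lung 16 weeks after GMA-MS was 7.83 on replicate 2 against 7.73 to 7.74, and in A/J lung 16 weeks after GMA-MS it was 7.44 on replicate 1 against 7.41, where it was not detected.

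The change of Pcna after GMA-MS differed between the strains in the fit with the beadchip as a block, by a log2 difference of 0.49 at 4 weeks (A/J 0.34 and B6 -0.16, adjusted p = 0.0111) and 0.52 at 16 weeks (A/J 0.30 and B6 -0.23, adjusted p = 0.0126). It was above 0 on 8 of 8 beadchips (0.39 to 0.66). Whether the place on the beadchip has a part in it was not tested.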

How the results depend on the processing

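The 5 genes lower in A/J (Kif23, Plk1, Bub1b, Tpx2 and Rrm1) kept their direction under every setting and with each array left out, and Kif23 kept its call. With the beadchip as a replicate block, 1 division gene (Pcna) was called for GMA-MS in A/J at 4 weeks and 1 (Pcna) for the strain difference in the GMA-MS effect at each time, and 7 in place of 3 for the change of the strain difference over time. The block changed no other count by over 1.5 times. Median scaling called 2 in place of 5 between sham lungs of the strains at 4 weeks, 4 in place of 8 over the 3 exposures at 4 weeks and 8 (3 higher and 5 lower) in place of 17 (12 and 5) at 16 weeks. It called 5 in place of 9 over time in A/J sham lung, 3 in place of 8 in B6, and 0 in place of 3 for the change of the strain difference over time. Of all genes it called 734 and 1952 of 8687, 3021 of 8710, and 1390, 1182 and 28 of 8900, in the same order. It turned the strain difference at 16 weeks to -0.55 for Top2a in sham lung and, over the 3 exposures, to -0.12 for Top2a, -0.26 for Tk1, -0.057 for Cdc20, -0.13 for Aurka, -0.15 for Birc5, -0.24 for Kif22 and -0.12 for Mad2l1, and the change over time in B6 sham lung to 0.22 for Tpx2 and 0.050 for Birc5. It also moved the median of all genes by over 0.1 in 4 comparisons, to -0.125 between sham lungs of the strains at 16 weeks and -0.139 over time in A/J sham lung. Relative to all genes, differences in these 2 comparisons are that much higher. The other 2 were the strain difference in the GMA-MS effect at 16 weeks (0.106) and the time difference in the strain difference of sham lungs (-0.112). Over time in B6 sham lung it put the median of all genes at 0.046, close to the 0.050 of Birc5. The cause was not tested.

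The cutoff of the study called 4 over the 3 exposures at 4 weeks (13.5% of all genes) and 5 at 16 weeks (11.1%). Over time it called 3 in A/J (10.3%) and 2 in B6 (10.7%). It called 1 for GMA-SS against GMA-MS in A/J at 16 weeks (Prc1, 0.241%). Another 1 was called for the strain difference in the GMA-MS effect at 16 weeks (Pcna, 1.03%). The time difference between sham lungs of the strains had 1 (Prc1, 1.08%), and that over the 3 exposures had 1 (1.89%). With only the arrays of the groups compared, 2 were called over time in A/J (1278 of all 8900 genes) and 4 in B6 (2138). The deposited values called 5 (4 upward and 1 downward) for the change of the strain difference over time, beside 355 of all 8900 genes. Neither they nor the block gave a value for 16 against 4 weeks.

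Leaving out 1 array gave 4 to 7 calls between sham lungs of the strains at 4 weeks and 6 to 9 at 16 weeks, 7 to 9 and 14 to 18 over the 3 exposures, 6 to 9 over time in A/J sham lung and 5 to 8 in B6, and 1 to 5 for the change of the strain difference over time. All other counts stayed at 0. Plk1 and Tpx2 have only a bound in A/J, and Bub1b was detected on few A/J arrays.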
